A study of Mus musculus with 238 samples.

Results

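Potassium channel genes were followed across 15 regions of the aged mouse brain. They were taken by name and level: a row of the count table belonged to the set if its symbol began with Kcn and its mean reached 1 CPM (counts per 1 M counts of the library) in at least 1 brain region. Of 21076 rows, 99 carried such a symbol and 90 met the level. The 9 that did not were Kcna7, Kcna10, Kcnj1, Kcnj15, Kcnk7, Kcnk16, Kcnk18, Kcne1 and Kcnv2. Just inside the limit were Kcne3 at a mean of 1.06 CPM in the entorhinal cortex and Kcnmb3 at 1.08 CPM in the olfactory bulb, and just outside were Kcnv2 at 0.58 CPM and Kcnj15 at 0.46 CPM in their highest regions. At a mean of 1 CPM or more, 61 of the 90 genes were found in all 15 regions and 3 (Kcnmb3, Kcne3 and Kcnk15) in 1 region only.

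All mice were of the C57BL/6JN strain and 19 months old. In the diet experiment, females were fed freely (AL, 4 mice) or were dietary restricted (aDR, 5 mice). In the plasma experiment, males were injected behind the eye with plasma of young mice (YMP, 3 mice) or with PBS (4 mice). Each experiment used 1 sex, so a difference between AL and PBS mice cannot be told apart from a difference between the sexes. RNA of homogenised tissue was sequenced without strand information after Smart-Seq2 amplification, in 131 brain libraries of the diet experiment and 98 of the plasma experiment. The regional pattern was read from the 112 control libraries (58 AL, 54 PBS), with 6 to 8 libraries per region. Control libraries held 1.96 to 32.4 M counts, and all brain libraries 0.606 to 32.4 M with a median of 8.47 M. Nothing in the labels says how tissue was dissected, and in bulk tissue fewer cells of a type and less RNA per cell cannot be told apart.

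Potassium channels let potassium ions leave or enter a cell and thereby set its resting potential, end action potentials and limit repetitive firing. The pore-forming subunits fall into several families: voltage-gated channels (Kcna, Kcnb, Kcnc, Kcnd, Kcnq and Kcnh), calcium- or sodium-activated channels (Kcnma, Kcnn, Kcnt, Kcnu), inward rectifiers (Kcnj) and tandem-pore leak channels (Kcnk). Modifier subunits (Kcnf, Kcng, Kcns, Kcnv) form no channel alone and assemble with Kcnb subunits, and auxiliary subunits (Kcnab, Kcne, Kcnip, Kcnmb) alter trafficking and gating. By symbol, the 90 genes comprised 15 voltage-gated pore-forming subunits of the Kcna to Kcnd groups, 9 modifiers, 5 Kcnq, 8 Kcnh, 8 calcium- or sodium-activated, 13 inward rectifier, 11 tandem-pore and 15 auxiliary genes. The other 6 matched by name only: Kcnrg, which encodes a soluble protein, the antisense transcripts Kcnd3os, Kcnab3os, Kcnmb4os1 and Kcnmb4os2, and Kcnq1ot1, a long non-coding RNA read antisense to Kcnq1.

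The stretch before the transcription start is shown for 4 genes on which the regional results turn: Kcne2 and Kcnj13, which moved together across regions, and Kcng4 and Kcnc1, which were highest in the cerebellum. Each sequence is the 250 bases before a RefSeq start on GRCm38.p6, on the strand of the gene, with every CG dinucleotide in capitals. They lie at chr16:92292139-92292388 (plus strand), chr1:87394730-87394979 (minus strand), chr8:119635681-119635930 (minus strand) and chr7:46396218-46396467 (plus strand) in the order listed. None of these 4 windows overlaps an exon of the GENCODE M21 annotation.
Kcne2: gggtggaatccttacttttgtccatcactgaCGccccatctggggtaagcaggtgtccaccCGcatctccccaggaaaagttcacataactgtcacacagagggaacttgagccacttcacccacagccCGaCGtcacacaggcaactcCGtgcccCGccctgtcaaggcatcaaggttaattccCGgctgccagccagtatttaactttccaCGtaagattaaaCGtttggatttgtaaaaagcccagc
Kcnj13: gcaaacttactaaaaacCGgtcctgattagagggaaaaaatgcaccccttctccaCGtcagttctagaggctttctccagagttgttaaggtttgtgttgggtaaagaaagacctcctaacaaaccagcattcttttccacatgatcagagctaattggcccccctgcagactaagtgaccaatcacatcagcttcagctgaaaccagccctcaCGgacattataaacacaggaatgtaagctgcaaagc
Kcng4: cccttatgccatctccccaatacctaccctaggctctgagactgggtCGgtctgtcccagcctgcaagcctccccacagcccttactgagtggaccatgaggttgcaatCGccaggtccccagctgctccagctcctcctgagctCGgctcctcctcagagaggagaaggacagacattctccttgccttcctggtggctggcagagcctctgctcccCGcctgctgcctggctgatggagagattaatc
Kcnc1: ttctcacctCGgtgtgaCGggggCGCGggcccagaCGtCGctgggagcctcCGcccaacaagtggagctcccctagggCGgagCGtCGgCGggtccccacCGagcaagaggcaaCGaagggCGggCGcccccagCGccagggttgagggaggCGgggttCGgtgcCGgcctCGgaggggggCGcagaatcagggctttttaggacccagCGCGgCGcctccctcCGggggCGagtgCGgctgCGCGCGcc
The Kcnj13 window held 3 CG dinucleotides and the letters TATAAA, Kcng4 held 4 CG, Kcne2 9 and Kcnc1 30. RefSeq gives Kcne2 another start, whose window held 1 CG. RefSeq windows were found for 65 of the 90 genes (90 windows), and their median was 8 CG, against 6 over all 32851 windows. TATAAA, on either strand, occurred in 3.33% of the potassium channel windows and 12.4% of all windows, and the GC box GGGCGG, on either strand, in 46.7% and 32.7%. The 2 motifs cannot overlap, since one holds only G and C and the other only T and A. The count of CG did not separate breadth. Here each gene was given its window with the most CG, whereas the median of 8 counted every window. The median per gene was 13 both in the 44 matched genes found in all 15 regions and in the 21 found in fewer.

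**Figure D1:**
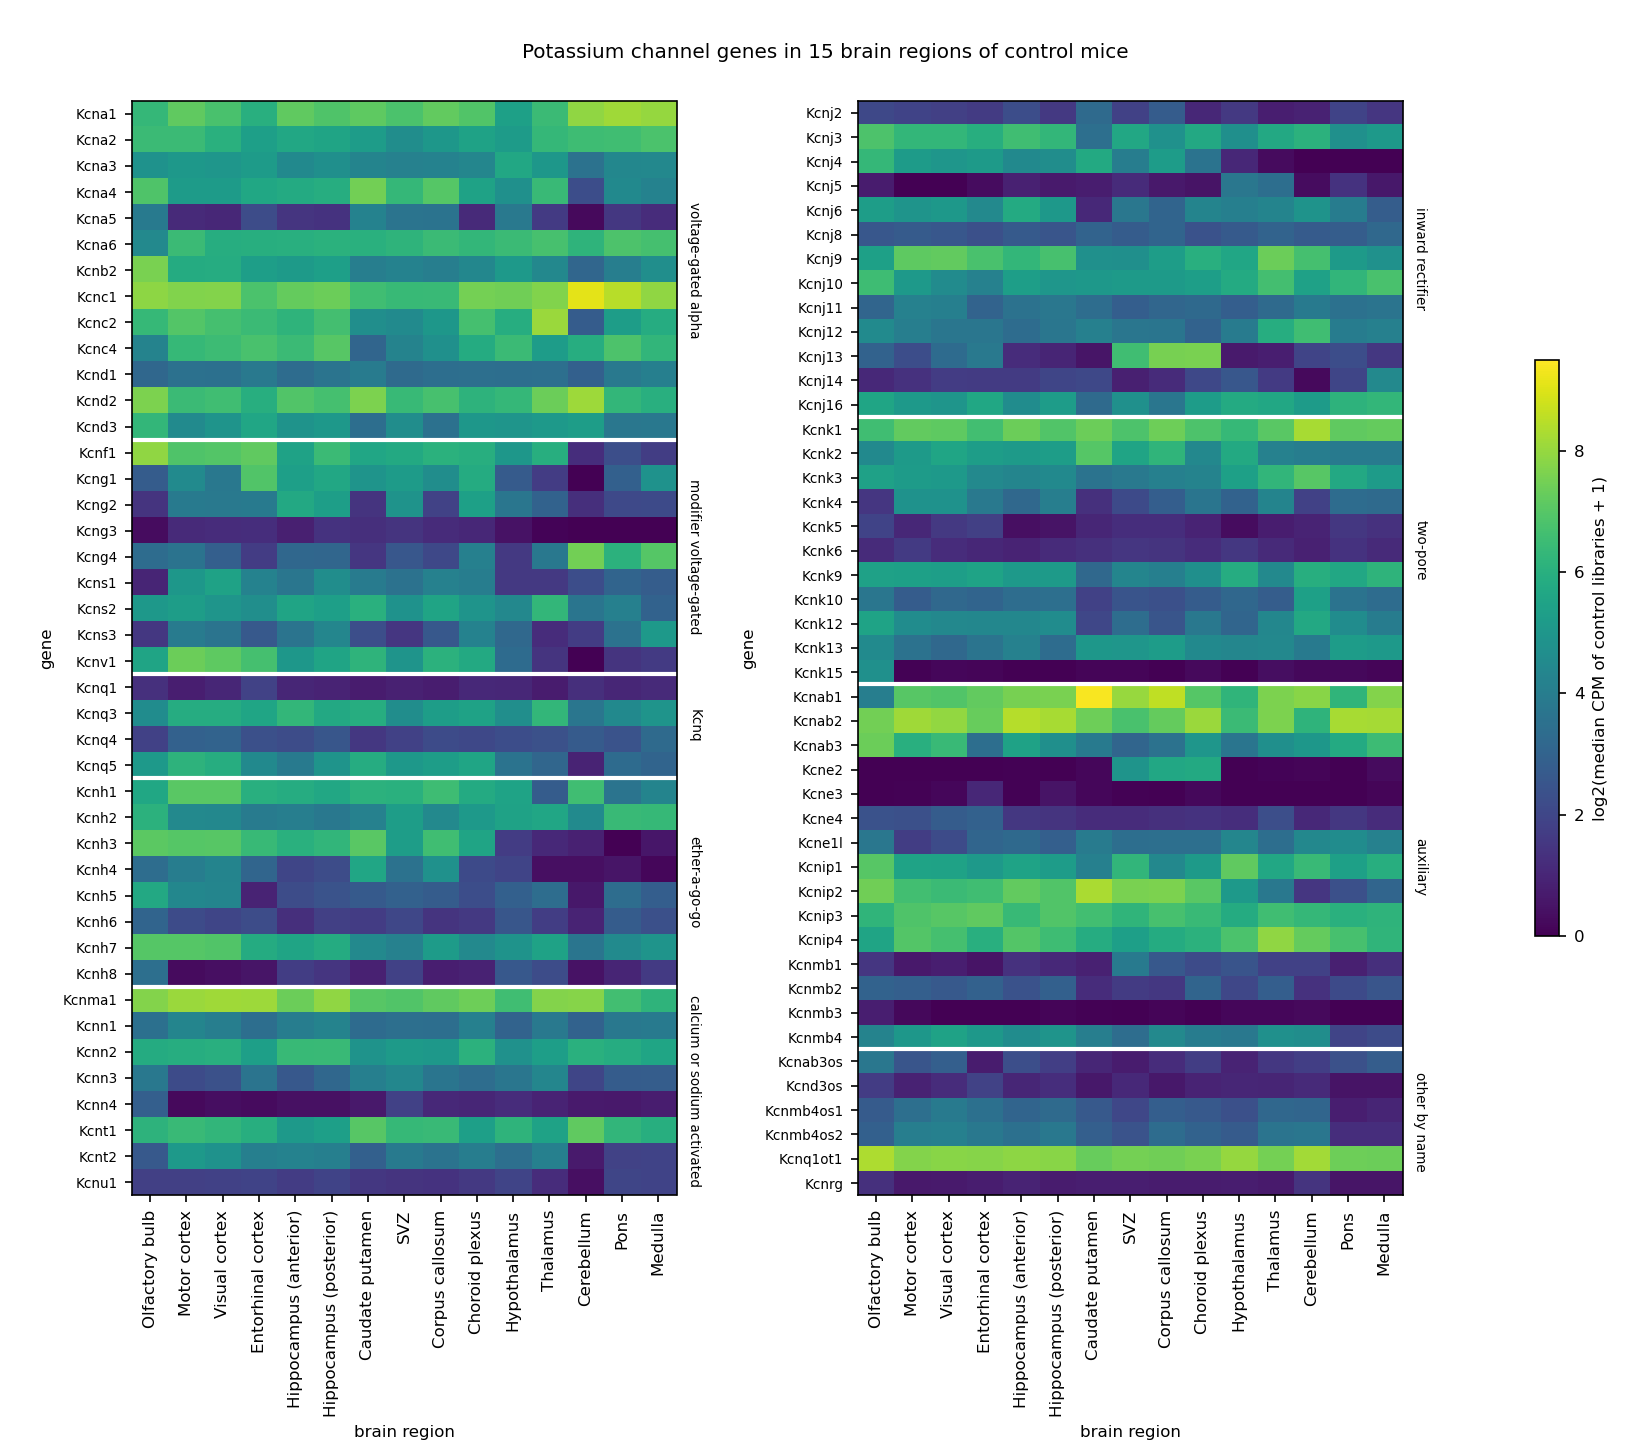
Median level of 87 potassium channel genes in control libraries, by region (columns) and gene class (rows), as log2 of CPM plus 1. Broad rows such as Kcnab2 and Kcnc1 contrast with rows lit in 1 to 3 regions, such as Kcnk15 in the olfactory bulb and Kcne2 in the choroid plexus, corpus callosum and SVZ.

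Levels of potassium channel genes differed widely between brain regions. Each region was set against the mean of the other 14 in 1 edgeR quasi-likelihood fit of the control libraries, and a gene was called where the adjusted p was under 0.05 and the log2 difference at least 1 in size. Of the 90 genes, 88 had enough counts to be tested, all but Kcne3 and Kcnmb3. All 88 differed somewhere among the regions, but so did 99.6% of all 15321 genes tested, so that count says little about these genes. The sizes say more: of the 1320 pairs of gene and region, 224 were called higher (16.97%) and 206 lower (15.6%), where over all genes 6.53% and 5.15% of pairs were. Among genes found at 1 CPM in every region, which are not switched off anywhere, the shares were 12.8% and 13.99% for potassium channel genes and 3.44% and 3.16% for all such genes.

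The pattern was shared by the sexes and experiments. The region of the highest median was the same in AL and PBS libraries for 69 of the 90 genes, and the order of the 15 regions correlated with a median Spearman rho of 0.939 over the genes, a description over 15 regions per gene. Profiles of the 90 genes, as log2 medians, matched best between AL and PBS within the same region in 15 of 15 regions, with r of at least 0.971. Some pairs of regions had close profiles and others did not. Over the 90 genes, motor and visual cortex correlated at 0.993, anterior and posterior hippocampus at 0.985 and pons and medulla at 0.970, whereas the cerebellum and the caudate putamen correlated at 0.544.

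The olfactory bulb and the motor and visual cortex stood at one end, with the most genes called higher. In the olfactory bulb 27 genes were higher and 11 lower, where 10.5% of all genes were higher and 7.08% lower. Motor cortex had 23 higher and 7 lower (4.88% and 5.67% of all genes), visual cortex 23 and 9 (5.34% and 6.62%), and entorhinal cortex 15 and 11 (5.78% and 4.6%). In posterior hippocampus 13 were higher and 7 lower (4.37% and 3.61%), and in anterior hippocampus 6 and 4 (4.07% and 2%). In each of these regions the share of potassium channel genes that were higher exceeded that of all genes. The same held in every other region but the hypothalamus.

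The cerebellum stood at the other end, with 12 genes higher and 36 lower, against 8.2% and 11% of all genes. The lower side also outweighed the higher in the hypothalamus with 6 higher and 20 lower (7.18% and 4.59%), the pons with 9 and 18 (6.15% and 5.63%) and the medulla with 13 and 22 (6.72% and 6.64%). Thalamus had 14 and 12 (5.93% and 5.37%), and caudate putamen 17 and 20 (6.07% and 7.79%). Corpus callosum had 20 and 16 (8.38% and 3.71%), the subventricular zone (SVZ) 15 and 11 (8.27% and 1.87%) and choroid plexus 11 and 2 (6.14% and 1.11%). In the hypothalamus the share of potassium channel genes that were higher was close to that of all genes.

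**Figure D2:**
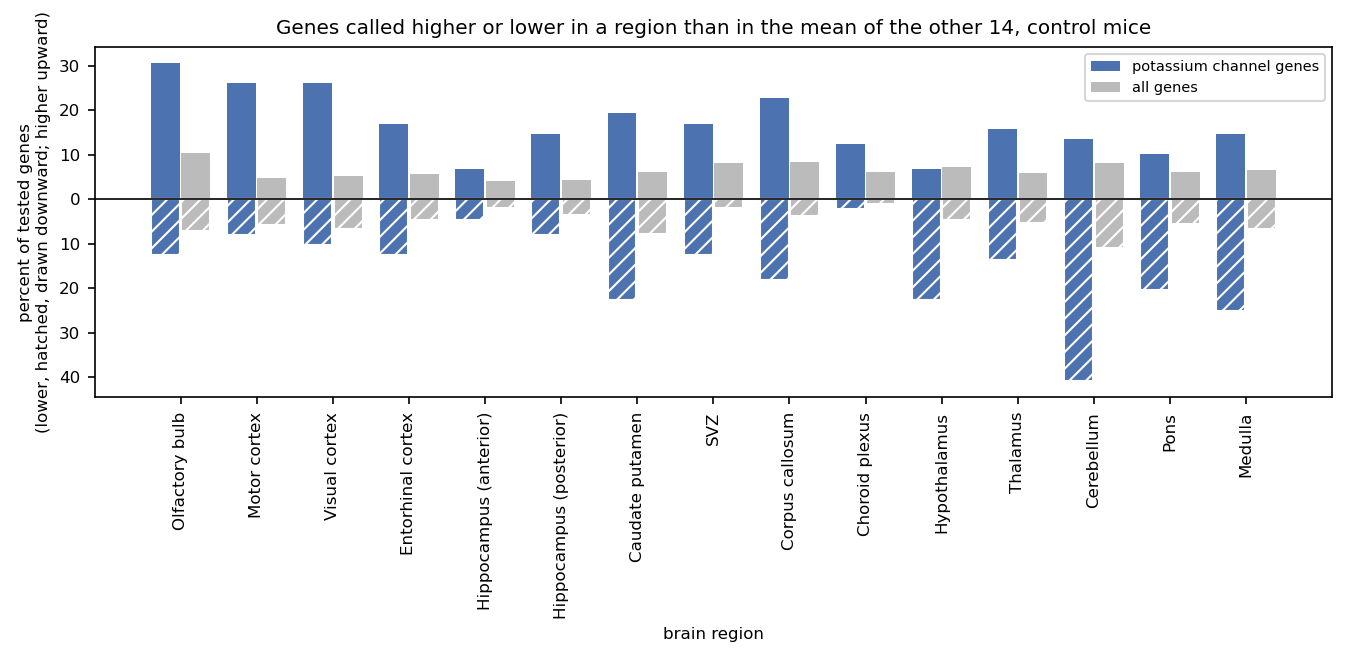
Percent of tested genes called higher or lower in each region against the mean of the other regions, for potassium channel genes and for all genes, in control libraries. Potassium channel genes exceed all genes on both sides in the olfactory bulb (27 higher and 11 lower of 88) and in the cerebellum (12 higher and 36 lower of 88).

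The labelled tissues were checked against sums of marker genes in control libraries. Markers of cerebellar granule and Purkinje cells had a median sum of 1880 CPM in cerebellum and at most 8.12 CPM elsewhere, olfactory bulb markers 1070 CPM in the bulb and at most 22.5 CPM elsewhere, and the 4 hypothalamic neuropeptides 2025 CPM in hypothalamus and at most 1.12 CPM elsewhere. Thalamic, hindbrain and neocortical lists were highest in thalamus, medulla and motor cortex. Libraries labelled choroid plexus and corpus callosum were mixed: the plexus libraries carried neuronal markers at a median of 4358 CPM, within the range of neural regions, and the callosum libraries carried striatal markers at 1597 CPM against 2961 CPM in the caudate putamen. Choroid plexus epithelial markers were as high in corpus callosum as in the choroid plexus, as given with Kcne2 and Kcnj13 below.

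Among the genes with the highest mean over the region medians were Kcnq1ot1 (212 CPM), Kcnab2 (212), Kcnc1 (204), Kcnab1 (201), Kcnma1 (180), Kcnk1 (143), Kcna1 (139) and Kcnd2 (119 CPM). Per kilobase of exon the order changed: Kcnk1 stood at 63.9 CPM per kb, Kcnab2 at 37.9 and Kcna1 at 29.2, and Kcnq1ot1, whose annotated exon is 93.1 kb long, at 2.28. Kcnk1 encodes a weakly conducting tandem-pore channel and Kcnab2 a subunit that aids surface delivery of Kcna channels. Summed over the protein-coding genes of the set, the median level per region ran from 480 CPM per kb in hypothalamus to 847 CPM per kb in cerebellum. The makeup of that sum shifted. Tandem-pore genes made up 25.6% of it in cerebellum and 10.6% to 17.3% in the other regions. Auxiliary genes made up 34.1% in caudate putamen and 18.1% in cerebellum. Inward rectifiers made up 27.4% in choroid plexus (libraries from 11.4% to 31.3%) and 7.7% in caudate putamen. Their share was 23.6% in corpus callosum (9.4% to 39.3%) and 20.2% in SVZ (9.0% to 42.2%). In choroid plexus they summed to a median of 204 CPM per kb. Kcnj13 alone, with 1.27 kb of exon, had a median of 191 CPM there, a large part of that sum. Kcnj13 is set against plexus epithelial markers below.

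Some genes were nearly level. Kcnq1ot1 had a ratio of the highest to the lowest region median of 2.06, Kcnd1 2.44, Kcnip3 2.57 and Kcnn1 2.73. The median of that ratio over the genes found in all regions was 8.57. Kcnq3, a subunit of the M-current channels that damp repetitive firing, was less level. Its median was 77 CPM in anterior hippocampus, 76.7 CPM in thalamus and 12.3 CPM in cerebellum, where it was called lower (log2 difference -1.84, SE 0.12).

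Among the voltage-gated pore-forming genes, the Kcnc family, whose channels open and close fast and serve rapid firing, split by region. Kcnc1 ranged from 465.9 to 698 CPM with a median of 556 CPM in cerebellum, above every library of the next region, pons, where the range was 171 to 361 CPM. Its log2 difference in cerebellum was 1.64 (SE 0.09, edgeR adjusted p = 7.79e-33).

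Kcnc2 and Kcnc4 went elsewhere. Kcnc2 had its highest level in thalamus, with 148 to 317 CPM and a median of 269 CPM (log2 difference 2.18, SE 0.15, edgeR adjusted p = 4.97e-24), and was called lower in cerebellum, where its median was 5.85 CPM and 1 library reached 24.1 CPM. In the cerebellum Kcnc2 therefore lay far below Kcnc1. Kcnc4 had medians of 130 CPM in posterior hippocampus, 113 CPM in pons and 107 CPM in entorhinal cortex, and 7.47 CPM in caudate putamen. It was called higher in those 3 regions and lower in caudate putamen, olfactory bulb and SVZ.

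The Kcnb and Kcnd genes carry delayed and transient currents of cell bodies and dendrites. Kcnb2 was set apart in the olfactory bulb, at 178 to 212 CPM with a median of 190 CPM, above every library of visual cortex (49.9 to 64.7 CPM). Its log2 difference in the bulb was 2.83 (SE 0.07, edgeR adjusted p = 8.86e-64). Kcnd2, which carries the A-type current, was highest in cerebellum at 225 to 367 CPM with a median of 278 CPM, and Kcnd3, its close relative, in the olfactory bulb at 71.3 to 85.5 CPM with a median of 77.4 CPM. In caudate putamen the pair parted: Kcnd2 was called higher (median 195 CPM) and Kcnd3 lower (median 9.79 CPM).

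Of the Kcna genes, whose channels sit largely on axons, Kcna1 was called higher in pons and medulla, with medians of 283 and 257 CPM, and lower in hypothalamus, with a median of 41.4 CPM. Kcna2, its partner, had medians of 110 CPM in medulla and 24.5 CPM in SVZ and was called lower in SVZ only. Kcna4 was led by caudate putamen at a median of 175 CPM and fell to 3.74 CPM in cerebellum (log2 difference -3.97, SE 0.18). Kcna5 was called higher in hypothalamus at 7.53 to 19.4 CPM with a median of 13.2 CPM (log2 difference 2.08, SE 0.17), and its medians in caudate putamen (17.4 CPM) and olfactory bulb (13.7 CPM) lay within that range. The motor and visual cortex and cerebellum held it at 1.21, 1.06 and 0.182 CPM.

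The 9 modifier genes divided cerebellum from forebrain. In cerebellum 8 of them were lower and 1, Kcng4, was higher. Kcng4 ranged from 156 to 242 CPM there with a median of 179 CPM, above every library of medulla (73.5 to 141 CPM) and pons (27.9 to 99.5 CPM). The median of the other region medians was 7.89 CPM. Its log2 differences were 4.10 (SE 0.18, edgeR adjusted p = 6.18e-40) in cerebellum, 3.49 (SE 0.18) in medulla and 2.65 (SE 0.21) in pons, and it was called lower in 5 forebrain regions, with entorhinal cortex (-2.29) and corpus callosum (-2.10) at the low end. Kcnv1 was the reverse: its cerebellar median was 0 and its highest cerebellar value 0.588 CPM, against 127 to 176 CPM with a median of 163 CPM in motor cortex (log2 difference 3.39, SE 0.11, edgeR adjusted p = 1.27e-47) and a median of 141 CPM in visual cortex (3.24, SE 0.12).

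Other modifiers marked parts of the forebrain. Kcng1 led in entorhinal cortex, with a median of 119 CPM and a range of 14.75 to 172 CPM (log2 difference 3.26, SE 0.20), and had a median of 0 in cerebellum. Kcng2 was highest in anterior hippocampus at 29.3 to 61.9 CPM, median 52.1 CPM (log2 difference 2.63, SE 0.17), and its ranges in choroid plexus (33.6 to 57.6 CPM) and posterior hippocampus (19.9 to 79.8 CPM) overlapped that. Markers of hippocampal neurons had a median sum of 167 CPM in the choroid plexus libraries, 168 CPM in posterior and 285 CPM in anterior hippocampus, and their part in the Kcng2 level of the plexus libraries was not tested. Kcnf1 stood at 228.6 to 262 CPM in the olfactory bulb, above the 90.2 to 168 CPM of entorhinal cortex, and at a median of 1.37 CPM in cerebellum. Kcns3 was called higher in medulla at 21.9 to 38.8 CPM, median 33.9 CPM (log2 difference 2.29, SE 0.15), above the next region by median, posterior hippocampus (18 to 21.3 CPM), while pons reached up to 28.2 CPM. By count, 7 of the 9 modifiers were higher in posterior hippocampus and none lower, 6 were higher and 1 lower in entorhinal cortex, and 4 were lower and 1 higher in both pons and thalamus.

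**Figure D3:**
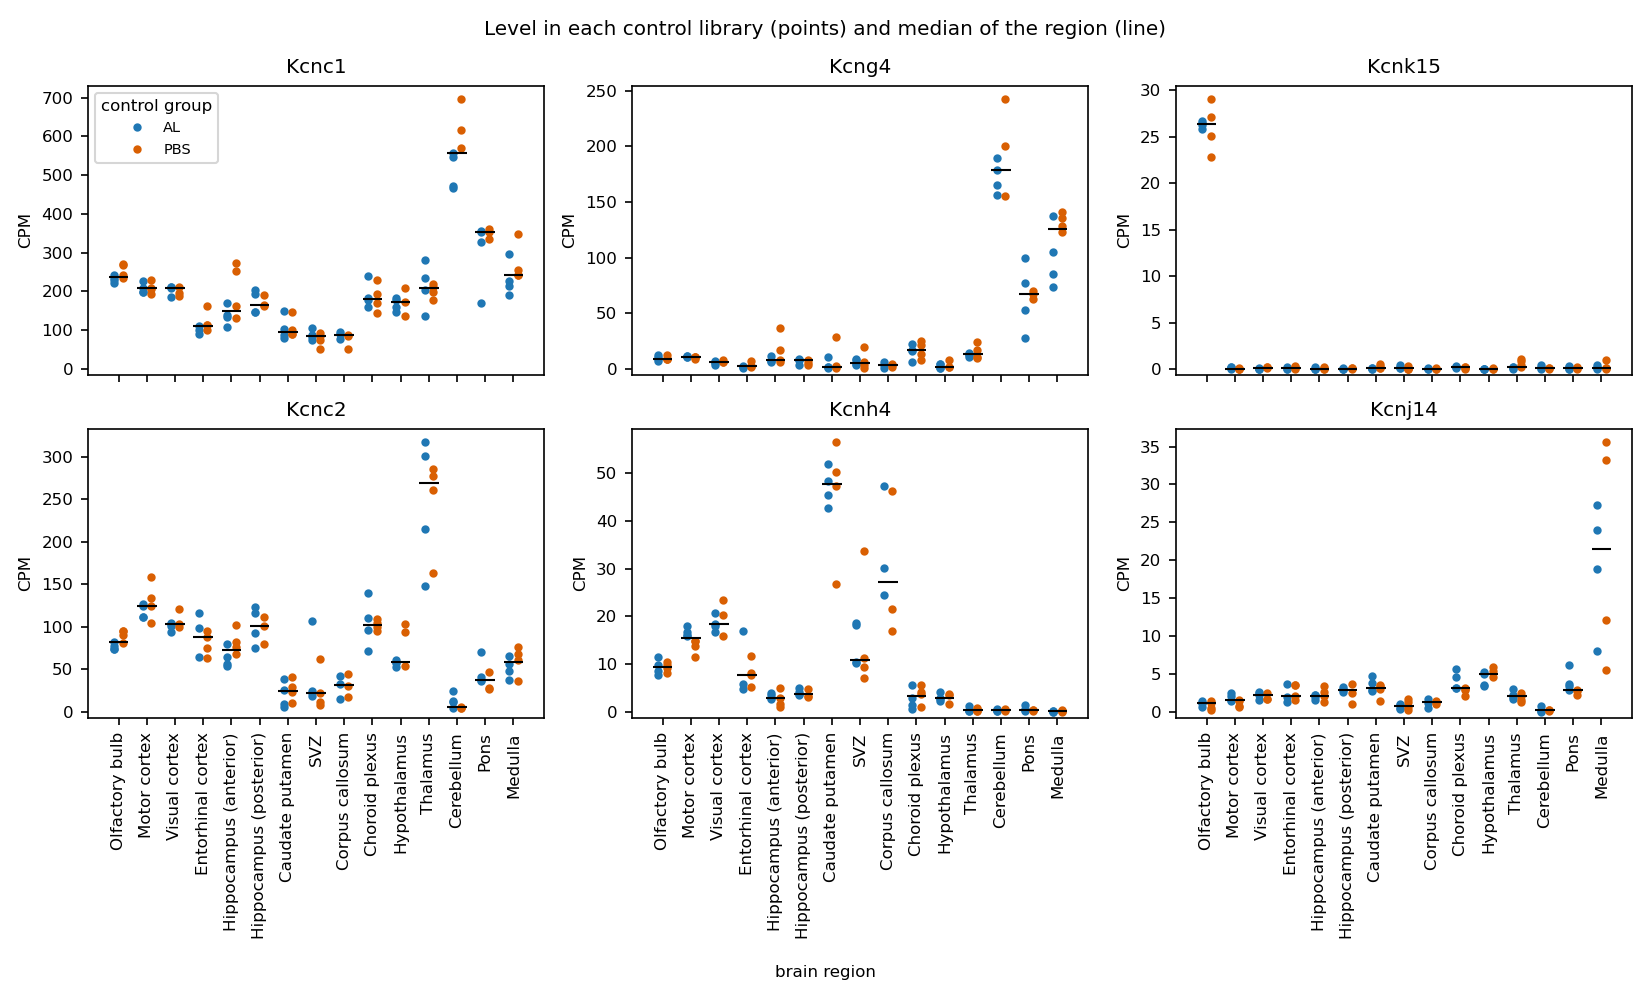
Level of 6 potassium channel genes in every control library, by region, in CPM, with AL and PBS libraries in separate colours. The cerebellar libraries of Kcng4 (156 to 242 CPM) and Kcnc1 (465.9 to 698 CPM) and the olfactory bulb libraries of Kcnk15 (22.8 to 29 CPM) lie above all libraries of the other regions.

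The Kcnh genes, relatives of the ether-a-go-go channel of the fly, were mostly forebrain genes. In the olfactory bulb 7 of 8 were higher and none lower, in motor and visual cortex 5 were higher and 1 lower, and in cerebellum none was higher and 6 were lower. Kcnh3 had medians of 136 CPM in olfactory bulb, 135 CPM in caudate putamen, 131 CPM in visual cortex and 127 CPM in motor cortex, ranges that all overlapped. In pons its median was 0, with a highest value of 0.302 CPM, so that level lay at the floor. Kcnh4 was most caudate: it ranged from 26.8 to 56.5 CPM there with a median of 47.8 CPM (log2 difference 3.88, SE 0.13, edgeR adjusted p = 8.2e-50), overlapped corpus callosum at 16.9 to 47.3 CPM, and had a median of 0.137 CPM in medulla. Striatal markers were also present in the corpus callosum libraries, as given above, and their part in the Kcnh4 level there was not tested.

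Kcnh2 and Kcnh8 broke that pattern. Kcnh2, which encodes the channel of the rapid delayed rectifier current of the heart, was higher in pons (52.1 to 91.2 CPM, median 85.2 CPM, log2 difference 1.42, SE 0.11), in medulla (median 81.1 CPM) and in the olfactory bulb (67.6 CPM), and lower in entorhinal cortex and posterior hippocampus. Kcnh8 was low throughout, with medians of 10.1 CPM in olfactory bulb, 5.12 CPM in hypothalamus and 3.67 CPM in thalamus, and of 0.205 CPM in motor cortex. Kcnh5 stood at 41.1 to 61.1 CPM in the olfactory bulb and at a median of 0.905 CPM in entorhinal cortex, which separates entorhinal from motor cortex (19.9 CPM). Kcnq5 followed the forebrain pattern, with a median of 69.8 CPM in motor cortex and 0.921 CPM in cerebellum (log2 difference -4.61, SE 0.22).

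Calcium- and sodium-activated genes ranged from nearly level to restricted. Kcnma1, the large-conductance calcium-activated channel, had medians of 284 CPM in visual cortex and 70.8 CPM in medulla, the only region in which it was called. Kcnmb4, its neuronal auxiliary subunit, was closer to an on and off pattern, with 43.9 CPM in visual cortex, 2.86 CPM in pons and 3.47 CPM in medulla. The log2 medians of the 2 genes correlated at 0.89 over the 15 regions. Kcnt1 and Kcnt2, the sodium-activated pair, went apart, with a correlation of -0.48: in cerebellum Kcnt1 was higher (median 143 CPM) and Kcnt2 lower (0.604 CPM). Kcnn4, the intermediate-conductance channel better known from blood cells and epithelia, was higher in the olfactory bulb at 3.42 to 8.68 CPM, median 6.41 CPM (log2 difference 3.24, SE 0.18), against a median of 0.596 CPM over the other regions. Red blood cell markers also had their highest median sum in the olfactory bulb, at 43.8 CPM against 16.3 CPM in cerebellum, and their part in the Kcnn4 level was not tested.

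Among the inward rectifiers, several separated forebrain from hindbrain. Kcnj4, an inward rectifier of forebrain neurons, ranged from 69.2 to 86.6 CPM in the olfactory bulb, median 79.7 CPM (log2 difference 3.97, SE 0.12, edgeR adjusted p = 1.34e-53), and from 37.8 to 72.1 CPM in caudate putamen, median 53.7 CPM (3.59, SE 0.12). It was also among the highest differences in both hippocampal regions and in motor, visual and entorhinal cortex. In cerebellum, pons and medulla its median was 0, and the highest medulla library held 0.0908 CPM. Thalamus, at a median of 0.2 CPM, was likewise called lower. In PBS libraries alone the Kcnj4 calls in medulla (log2 difference -7.04) and thalamus (-4.71) were lost, both at an edgeR adjusted p of 1. Fitted folds against regions at 0 depend on a small added count and are not given as ratios.

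Kcnj5, a subunit of channels opened by G proteins, had nearly the opposite pattern. It ranged from 7.11 to 13.9 CPM in hypothalamus with a median of 12.5 CPM (log2 difference 4.08, SE 0.26) and from 4.36 to 17.5 CPM in thalamus with a median of 9.77 CPM (4.05, SE 0.25), and those ranges overlapped. Motor and visual cortex had medians of 0, with highest values of 0.22 and 0.361 CPM. The call in visual cortex was lost under 3 alternatives, 1 of them without PBS mouse 80 (edgeR adjusted p = 1). Over the 3, the log2 difference ran from -3.12 to -1.87. The other G-protein-gated subunits were broader. Kcnj3 had a median of 115 CPM in olfactory bulb and 10.2 CPM in caudate putamen, Kcnj6 of 54.5 CPM in anterior hippocampus and 1.15 CPM in caudate putamen (log2 difference -3.07, SE 0.23), and Kcnj9 of 166 CPM in thalamus and 26.6 CPM in caudate putamen. All 3 were thus called lower in caudate putamen, and Kcnj3 and Kcnj6 correlated at 0.91 over the 15 regions.

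Kcnj10, the main inward rectifier of astrocytes, had medians of 108 CPM in medulla, 101 CPM in thalamus and 91.7 CPM in olfactory bulb, in each of which it was called higher, and 16.9 CPM in entorhinal cortex, where it was lower. Kcnj16, which assembles with it, was higher in medulla (median 76.6 CPM) and pons (69.3 CPM) and lower in caudate putamen (8.66 CPM). Astrocyte markers had median sums of 2290 CPM in medulla, 2097 CPM in pons, 1694 CPM in entorhinal cortex, 1645 CPM in caudate putamen, 1379 CPM in olfactory bulb and 1204 CPM in thalamus. In thalamus and olfactory bulb, where Kcnj10 was called higher, the marker sum was thus below that of entorhinal cortex, where Kcnj10 was called lower. Kcnj9 and Kcnj10 lie 11.9 kb apart on chromosome 1 on opposite strands and correlated at -0.31. Kcnj16 and Kcnj2 lie 38.2 kb apart on chromosome 11 on the same strand and correlated at -0.72. Other neighbouring pairs ran from -0.49 for Kcna5 and Kcna1 to 0.35 for Kcna1 and Kcna6 and 0.99 for the antisense transcripts Kcnmb4os1 and Kcnmb4os2. Kcnj14 was a medullary gene, at 5.6 to 35.5 CPM with a median of 21.5 CPM (log2 difference 3.50, SE 0.14, edgeR adjusted p = 2.85e-43) against 4.94 CPM in hypothalamus, where the range of 3.48 to 5.86 CPM just overlapped it. Kcnj12 was highest in cerebellum (75 to 103 CPM), above all thalamic libraries (48.5 to 69.1 CPM), and lower in choroid plexus (median 6.92 CPM), a call that missed the size limit without PBS mouse 84 (log2 difference -0.99).

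Several tandem-pore genes were highest in the cerebellum. Of the 11 genes, 4 were higher there: Kcnk1 at 296 to 320 CPM (median 308 CPM), Kcnk3 at 96.5 to 142 CPM (median 129 CPM), Kcnk12 at a median of 52.2 CPM and Kcnk10 at 28.8 to 47.4 CPM (median 41.1 CPM). For Kcnk1, Kcnk3 and Kcnk10 the cerebellar range lay above that of the next region. Kcnk2 and Kcnk4 were lower in cerebellum, at 15.3 and 2.59 CPM. Kcnk2, a channel opened by stretch and lipids, was instead highest in caudate putamen at a median of 126 CPM. Kcnk9, an acid-sensitive leak channel, had medians of 71.5 CPM in medulla and 8.3 CPM in caudate putamen.

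By region mean, Kcnk15 reached 1 CPM in the olfactory bulb alone. It ranged from 22.8 to 29 CPM in the olfactory bulb with a median of 26.4 CPM, and the next median was 0.266 CPM in thalamus, whose highest library held 1.12 CPM. The log2 difference in the bulb was 7.56 (SE 0.16, edgeR adjusted p = 5.23e-67). Kcnk13, expressed by microglia, had its highest medians in pons (37.5 CPM) and corpus callosum (37.1 CPM), was called higher in corpus callosum and was called lower in posterior hippocampus (9.36 CPM) and visual cortex (8.25 CPM). The 3 microglial markers had a median sum of 319 CPM in caudate putamen, 272 CPM in corpus callosum, 219 CPM in posterior hippocampus, 209 CPM in visual cortex and 196 CPM in pons, so their order over regions was not that of Kcnk13. Kcnk5 was low, at medians of 2.74 CPM in olfactory bulb and 0.316 CPM in anterior hippocampus, and the lower call in anterior hippocampus was absent in PBS libraries alone (log2 difference -0.53, edgeR adjusted p = 0.45).

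Auxiliary subunits showed large regional differences. Kcnab1, a subunit that speeds inactivation of Kcna channels, ranged from 441 to 760 CPM in caudate putamen with a median of 670 CPM, and from 12.9 to 19.3 CPM in olfactory bulb with a median of 15.8 CPM (log2 difference -3.62, SE 0.14, edgeR adjusted p = 6.62e-45). Kcnab3 reversed that order, with 162 CPM in olfactory bulb, 14 CPM in caudate putamen and 7.46 CPM in SVZ (log2 difference -2.02, SE 0.25). Kcnab2 was broader, with medians of 347 CPM in anterior hippocampus and 70.7 CPM in cerebellum. The Kcnip genes encode calcium-binding partners of Kcnd channels. Kcnip2 ran from 315 CPM in caudate putamen to 1.84 CPM in cerebellum, Kcnip4 led in thalamus at 191 to 274 CPM (median 239 CPM) and Kcnip1 in hypothalamus at a median of 144 CPM. Over the 15 regions Kcnip4 and Kcnd2 correlated at 0.24, Kcnip2 and Kcnd2 at -0.09 and Kcnip1 and Kcnd3 at 0.59, so likeness of partner and channel differed by pair.

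Kcnmb1, the auxiliary subunit known from smooth muscle, was higher in SVZ at 10.3 to 17.5 CPM, median 13.6 CPM (log2 difference 3.06, SE 0.19), above every library of corpus callosum (2.78 to 7.78 CPM). It lies within Kcnip1 on the opposite strand, with 0 exon bases shared, and these libraries do not mark strand. Ependymal markers also led in SVZ, at a median sum of 114 CPM against 54.7 CPM in hypothalamus, and their part in the Kcnmb1 level was not tested. The antisense transcript Kcnab3os was low and followed its partner: it had medians of 12.6 CPM in olfactory bulb and 0.672 CPM in SVZ, as Kcnab3 was high and low there. Kcnab3os shares 26.0% of its exon bases with Kcnab3, Kcnmb4os1 43.1% and Kcnmb4os2 34.2% with Kcnmb4, so reads of either strand could be counted for both. In all, 5 of the 90 genes share at least 10% of their exon bases with a protein-coding gene of the other strand.

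Over all 4005 pairs of potassium channel genes, the median correlation of log2 region medians was 0.046, and 1.65% of pairs reached 0.8. Kcne2 and Kcnj13 were at 0.91, and Kcnh3 and Kcnh4 at 0.86. Kcna1 and Kcna2 were at 0.49. These describe 15 regions taken from the same mice and carry no test.

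Kcne2 and Kcnj13 followed the markers of 1 cell type. Both are channel genes of the choroid plexus epithelium, the sheet of cells that secretes cerebrospinal fluid. Kcne2 ranged from 4.22 to 71.4 CPM in choroid plexus with a median of 53.7 CPM, from 0.834 to 119 CPM in corpus callosum with a median of 51.2 CPM and from 0.46 to 128 CPM in SVZ with a median of 28.9 CPM. Kcnj13 ranged from 14.5 to 272 CPM, median 191 CPM, from 1.39 to 449 CPM, median 185 CPM, and from 0.92 to 530 CPM, median 94.1 CPM, in those regions. In choroid plexus the log2 differences were 6.37 (SE 0.46) for Kcne2 and 4.25 (SE 0.39) for Kcnj13, in corpus callosum 6.55 (SE 0.50) and 4.49 (SE 0.42), and in SVZ 6.04 (SE 0.47) and 3.83 (SE 0.41). Each of the 3 regions held libraries high and libraries low in both genes, with the wider ranges in corpus callosum and SVZ.

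The summed level of 10 plexus epithelial markers (Ttr, Folr1, Kl, Aqp1, Cldn2, Slc4a5, Tmem72, Otx2, Clic6 and Sostdc1) moved with both genes. In control libraries that sum ran from 686 to 10613 CPM in choroid plexus with a median of 8675 CPM, from 47.8 to 19090 CPM in corpus callosum with a median of 8365 CPM and from 70.0 to 20236 CPM in SVZ with a median of 3160 CPM. Elsewhere region medians lay between 3.01 and 53.3 CPM, although single libraries of caudate putamen, cerebellum, thalamus and anterior hippocampus reached 3555, 2304, 1608 and 1488 CPM. Per 1000 CPM of these markers, libraries with at least that sum held medians of 6.19, 5.60 and 7.99 CPM of Kcne2 and 23.9, 24.5 and 27.1 CPM of Kcnj13 in choroid plexus, corpus callosum and SVZ, from libraries of all treatments. These came from 13, 8 and 9 libraries. The ratio of each gene to the markers was thus similar in the 3 regions while the levels ranged widely. Ttr made up most of the sum in these libraries, as 17422 of 19090 CPM in the corpus callosum of PBS mouse 76. The ratios are therefore mainly ratios to Ttr. In the YMP libraries of corpus callosum and SVZ Ttr held 0 to 3.56 CPM, so their low sums came mostly from the other markers. Whether plexus epithelial cells were part of the dissected region was not tested.

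Kcne2 was also called higher in cerebellum (log2 difference 2.86, SE 0.81, edgeR adjusted p = 0.00103), where the median was 0.0959 CPM. That call came from 1 library, of AL mouse 68, at 27.4 CPM. The plexus marker sum of the AL cerebellar libraries ran from 21.3 to 2304 CPM, and its part in the call was not tested. Without that mouse the log2 difference was -1.66. Kcnj13 had a low level outside the 3 regions, from 0.436 CPM in caudate putamen to 13.5 CPM in entorhinal cortex. It lies within Gigyf2 on the opposite strand and shares 49.1% of its exon bases (623 bases) with it, so that these low levels cannot be assigned to either strand. Its lower calls rest on such levels: in hypothalamus at 0 to 1.5 CPM (log2 difference -4.43, SE 1.17) and in posterior hippocampus at a median of 0.988 CPM, where the Kcnj13 call (log2 difference -2.33, edgeR adjusted p = 0.0218) was lost without AL mouse 69 or PBS mouse 76, 80 or 84, in AL libraries alone, and without the 3 plexus-rich regions, with adjusted p from 0.0534 to 0.384 over these.

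**Figure D4:**
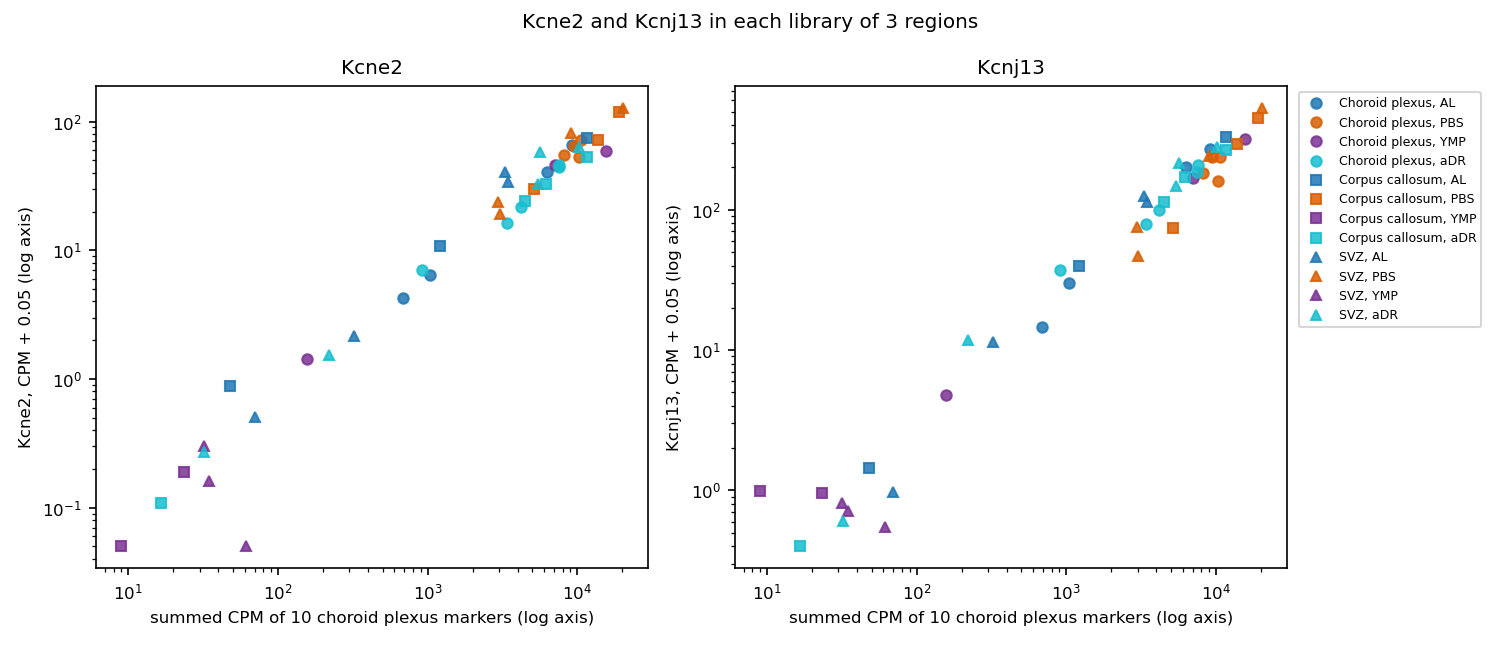
Kcne2 (left) and Kcnj13 (right) in CPM plus 0.05 against the summed CPM of 10 choroid plexus epithelial markers, log axes, for every library of choroid plexus, corpus callosum and SVZ, coloured by treatment. Libraries of all 3 regions lie along 1 band, and the YMP libraries of corpus callosum (9.01 and 23.4 CPM of markers) and SVZ (31.9 to 61.0 CPM) lie at its low end.

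Genes outside the Kcn names that work with potassium channels or move potassium, 26 in a list that holds Dpp6, Dpp10, the Hcn channels, the sodium pump subunits and others, were compared the same way, and 25 were tested. In the olfactory bulb 6 were higher and 2 lower (10.5% and 7.08% of all genes), and in cerebellum 4 and 2 (8.2% and 11%). Visual cortex had 4 and 2 (5.34% and 6.62%) and thalamus 1 and 4 (5.93% and 5.37%). None was higher in choroid plexus, corpus callosum, caudate putamen, SVZ or anterior hippocampus, where 4.07% to 8.38% of all genes were. With 25 genes tested, a count of 0 says little beside such shares. Neither treatment gave a call for any of the 25, and the small shares called over all genes are given below.

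Dietary restriction left no potassium channel gene past the threshold. Each region was tested by edgeR on its own aDR and AL libraries, with 0 of 1174 pairs of gene and region called, where 0.0525% of pairs were called over all genes. By region, the share of all genes called was 0.251% in motor cortex, 0.22% in olfactory bulb, 0.202% in visual cortex, 0.0524% in cerebellum, 0.0215% in corpus callosum, 0.0212% in SVZ, 0.00707% in choroid plexus, 0.0146% in caudate putamen, 0.00714% in medulla and 0% in the other 6. At an unadjusted p under 0.05 there were 86 pairs, 7.33%, against 6.24% over all genes. DESeq2 called 3 pairs, and its calls over all genes were not counted. Over the brain regions, limma compared 1 value per mouse, the mean log2 CPM of the mouse after allowing for region, and called 0 of 89 genes, with 7 (7.87%) at an unadjusted p under 0.05. Over all genes 0.922% were called, 144 of 15616, and 16.1% were at an unadjusted p under 0.05, a larger share than among the potassium channel genes. The test of a diet effect that differs between regions also called 0 of 89 genes, where 0.0128% of all genes were called. The median size of the change over the 89 genes was 0.09 on the log2 scale with a median SE of 0.08, and 38 were positive and 51 negative.

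The smallest p belonged to Kcnk13, the microglial tandem-pore gene. Its mouse values were 4.25, 4.26, 4.28 and 4.36 on the log2 CPM scale in AL mice and 3.74, 4.01, 4.06, 4.06 and 4.07 in aDR mice. The groups did not overlap, and the difference was -0.30 (SE 0.07, limma adjusted p = 0.0823), negative in 14 of 15 regions. Without aDR mouse 67, the lowest, the difference was smaller at -0.24 but the adjusted p was 0.0199, a call. Voom with the mouse as a replicate block also called Kcnk13. So did voom without the block, which treats regions of 1 mouse as independent (limma adjusted p = 1.99e-05). In cerebellum the AL libraries held 13.2, 15.4, 16.5 and 19.3 CPM of Kcnk13 and the aDR libraries 4.57, 7.58, 8.27, 10.3 and 10.9 CPM, again with no overlap (log2 difference -0.93, SE 0.20, edgeR adjusted p = 0.103, and 0.00294 by DESeq2).

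Kcna3, a voltage-gated channel also found in microglia and lymphocytes, had AL mouse values of 4.52, 4.62, 4.71 and 4.72 and aDR values of 4.32, 4.397, 4.45, 4.49 and 4.51 (difference -0.21, SE 0.05, limma adjusted p = 0.113, 0.0205 by voom with the mouse block, negative in 13 of 15 regions). Kcnj8, the pore of the ATP-sensitive channel of vascular mural cells, had AL values of 2.59, 2.64, 2.75 and 2.79 and aDR values of 2.25, 2.38, 2.49, 2.53 and 2.55 (difference -0.25, SE 0.07, limma adjusted p = 0.129, negative in 14 of 15 regions). For both, every aDR mouse lay below every AL mouse, by a margin of under 0.05 at the nearest pair. The aDR and AL mice were fully separated for 3 of 89 genes (3.37%), these 3, and for 8.3% of all genes, so such separation was no more frequent here than over all genes.

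Within regions, the 4 smallest diet p-values were that of Kcnk13 in cerebellum and those of 3 genes of visual cortex and olfactory bulb. Kcng2 in visual cortex stood at 11.6, 13.7, 14.3 and 14.6 CPM in AL and at 17.2, 18.1, 18.1, 18.2 and 19.9 CPM in aDR (log2 difference 0.48, SE 0.11, edgeR adjusted p = 0.0778). Kcnip4 there stood at 100.05, 104, 113 and 114 CPM in AL and 120.3, 126.7, 134.5, 134.6 and 138 CPM in aDR (0.27, SE 0.06, adjusted p = 0.0798). In olfactory bulb Kcnt1 stood at 57.2, 59.7, 62.3 and 68.2 CPM in AL and 69.1, 74.5, 84.3, 87.7 and 89.4 CPM in aDR (0.36, SE 0.08, adjusted p = 0.111). In all 3 the groups did not overlap. Like Kcnk13 in cerebellum, they were picked for small p-values, which favours such separation, and its share over all genes within a region was not counted. None of the 3 passed the threshold with edgeR on all mice. DESeq2 called Kcnip4 (adjusted p = 0.0406) and Kcnt1 (0.00859) there, as did edgeR with no filter on low counts for Kcnip4 (0.0458) and without aDR mouse 62 for Kcnt1 (0.0401).

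**Figure D5:**
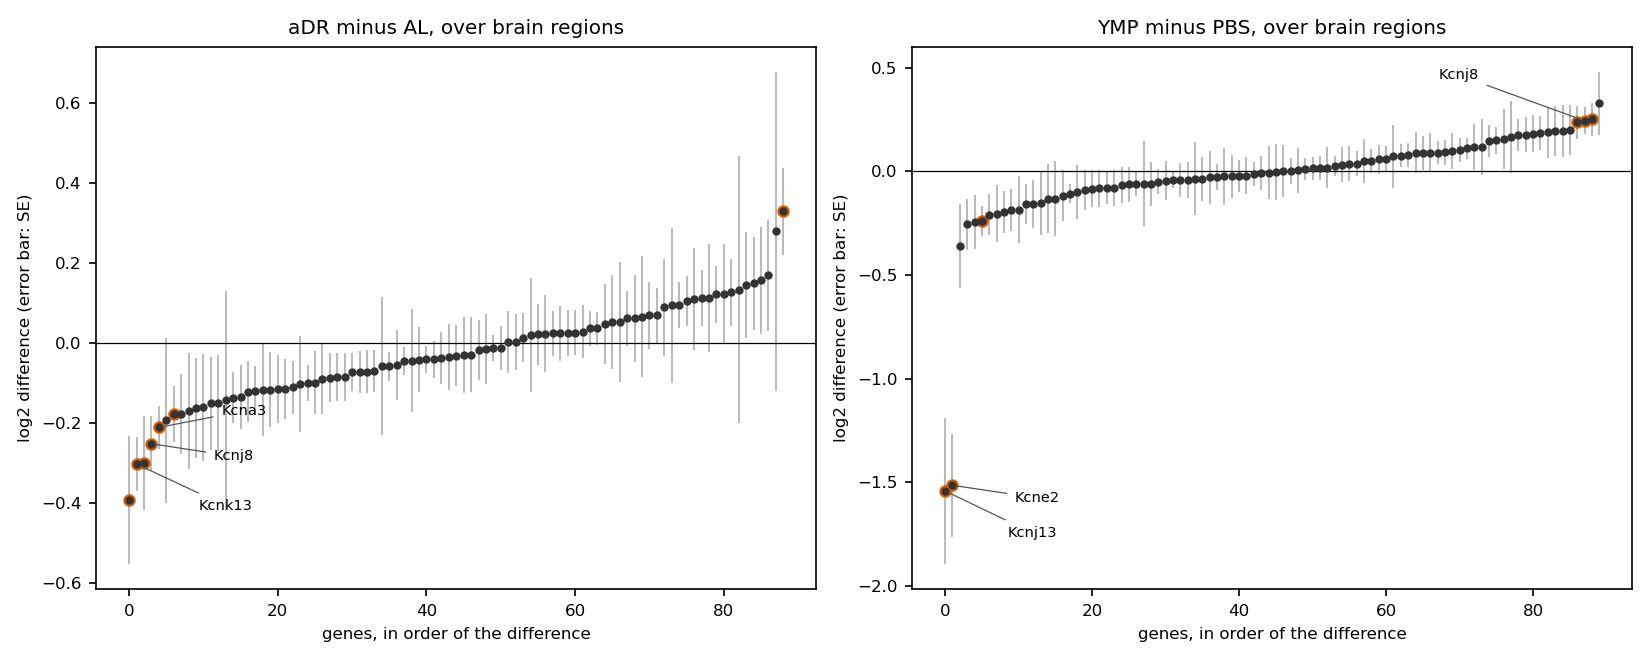
Log2 difference over brain regions (dot) with its SE (bar) for every potassium channel gene, aDR minus AL (left) and YMP minus PBS (right), ordered by size, with genes at an unadjusted p under 0.05 in orange. Differences are small but for Kcne2 and Kcnj13 in the plasma experiment, at -1.51 and -1.54, and no gene passed the adjusted threshold in either panel.

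With the alternatives set aside, young plasma gave calls for the same 2 genes that followed the plexus markers, and for no other. Alternatives, given below, called up to 14 pairs within regions, not all of which are listed here by gene. Of 1173 pairs of gene and region, 2 were called by edgeR (0.0127% of pairs over all genes, 0.184% of genes in corpus callosum, 0.00738% in cerebellum and 0% in the other 13 regions), both in corpus callosum, where YMP libraries came from 2 mice and PBS libraries from 3. Kcne2 stood at 29.995, 72.4 and 119 CPM in PBS and at 0 and 0.141 CPM in YMP, no count and 2 counts, and was at least 191-fold lower against a floor of 3 counts per library (edgeR adjusted p = 0.0283). Kcnj13 stood at 73.8, 296 and 449 CPM in PBS and at 0.915 and 0.938 CPM in YMP (log2 difference -8.21, SE 0.98, adjusted p = 0.0363). The plexus marker sum moved with them: 5130, 13811 and 19090 CPM in PBS and 9.01 and 23.4 CPM in YMP. Its part in the calls was not tested. Leaving out 1 mouse ended both calls in 3 cases: without PBS mouse 80 the adjusted p was 0.253 for Kcne2 and 0.302 for Kcnj13, without YMP mouse 77 it was 0.549 and 0.666, and without YMP mouse 81 it was 0.914 and 0.936.

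In SVZ the same genes did not pass the threshold. Kcne2 there stood at 19.0, 23.6, 80.7 and 128 CPM in PBS and 0, 0.110 and 0.253 CPM in YMP (edgeR adjusted p = 0.0548), and Kcnj13 at 47.0, 75.7, 243 and 530 CPM in PBS and 0.495, 0.662 and 0.759 CPM in YMP (adjusted p = 0.0688). Both passed in SVZ under 3 alternatives: DESeq2 (adjusted p = 2.46e-09 for Kcne2 and 3.57e-14 for Kcnj13), no filter on low counts with edgeR (0.0355 and 0.0392), and without PBS mouse 72. The marker sum was 2954 to 20236 CPM in PBS and 31.9 to 61.0 CPM in YMP. In choroid plexus the groups overlapped: Kcne2 stood at 52.7, 54.7, 65.0 and 71.4 CPM in PBS and at 1.37, 46.0 and 58.6 CPM in YMP, and Kcnj13 at 160, 182, 235 and 236 CPM in PBS and at 4.70, 167 and 319 CPM in YMP. The low YMP library, of mouse 73, held 157 CPM of plexus markers, and the other two 7045 and 15537 CPM. AL and aDR libraries of corpus callosum and SVZ also ranged from low to high in both genes, as the plot against the markers shows.

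Over the brain regions, limma called 0 of 90 genes for plasma, and none of the 15768 genes tested, with 6 potassium channel genes and 1276 genes in all at an unadjusted p under 0.05. Kcne2 differed by -1.51 (SE 0.25, limma adjusted p = 0.335) and Kcnj13 by -1.54 (SE 0.35, adjusted p = 0.371), and with choroid plexus, corpus callosum and SVZ left out those differences were -0.59 and -0.64 (adjusted p = 0.958 for both). Kcnj8 had mouse values of 2.28, 2.39, 2.48 and 2.53 in PBS and 2.64, 2.65 and 2.70 in YMP (difference 0.24, SE 0.06, adjusted p = 0.446), positive in 13 of 15 regions. Its sign was thus opposite to that under diet, in other mice of the other sex, and neither difference was called on mouse values. With voom and the mouse as a replicate block, the Kcnj8 diet difference was called (limma adjusted p = 0.00146). Without that block, which treats regions of 1 mouse as independent, both were (6.27e-05 for diet and 0.00251 for plasma). The YMP and PBS mice were fully separated for 9 of 90 genes, and for 10% of all genes, which is the same share.

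A plasma effect that differed between regions was called for Kcnj13 alone (edgeR adjusted p = 0.00863), 1 of 90 genes, where 0.824% of all genes were called. It was lost when corpus callosum was left out (adjusted p = 0.144) or without YMP mouse 73, 77 or 81 (adjusted p = 0.0881, 0.254 and 0.902). At an unadjusted p under 0.05 there were 96 pairs within regions, 8.18% against 6.11% over all genes. DESeq2 called 14 pairs. Its calls over all genes were not counted, so that number cannot be set against a share of all genes. The smallest p-values outside the plexus genes were for Kcna4 in hypothalamus, at 24.4, 24.5 and 26.0 CPM in PBS and 36.3, 39.8 and 41.5 CPM in YMP (log2 difference 0.66, SE 0.10, edgeR adjusted p = 0.547), and Kcng4 in medulla, at 123, 128, 136 and 141 CPM in PBS and 84.0, 88.9 and 107 CPM in YMP (-0.51, SE 0.10, adjusted p = 0.438). Neither passed the threshold. In both the groups did not overlap, but the genes were picked for small p-values, which favours such separation. Its share over all genes within a region was not counted. Where an adjusted p missed the threshold with so few mice per group, the difference was not detectable at this size of study, which does not show that it was absent.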

How the data were processed

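The authors deposited whole-number read counts per gene, 1 column per library, with no normalization. The submitters' processing notes name Trim Galore 0.3.7, STAR 2.5.3a, DESeq2 and the mouse build GRCm38, and the counting step and annotation are not given in the sources used here. CPM values were computed from plain library totals. Counts were tested with edgeR 4.0.16 (R 4.3.3, quasi-likelihood F test, TMM scaling, genes kept by filterByExpr at 10 counts in enough libraries and 15 in all), with Benjamini-Hochberg adjustment over all genes tested. Effects over regions were tested with limma 3.58.1 on 1 value per mouse (log2 CPM with a prior count of 2, region and mouse fitted first). DESeq2 1.42.0, other filters and scalings, the mouse as a block and leaving out each mouse were alternatives. The tests recovered known changes when tested on simulated data. Those changes were larger than most treatment differences found here and lay in genes with ample counts. Recovery of smaller changes, or of changes in genes near 0 CPM, was not tested.

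Mouse numbers tie libraries of 1 mouse across regions and never across treatments, so no treatment comparison was paired. Deviations from region means correlated at 0.042 on average between libraries of the same AL mouse (393 pairs) and at 0.182 for PBS (343 pairs). No 2 libraries of a group agreed within sampling noise (lowest chi-square per degree of freedom 1.29 over 341 pairs). Totals of 0.606 to 32.4 M counts per brain library leave genes under 1 CPM resting on few reads, and intervals from replicates cover the spread between these mice only.

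The potassium channel genes and all gene lists were chosen with earlier results of these data known. Genes were named by rule: in each region the 3 called highest and 1 called lowest by log2 difference, the 8 with the highest mean and the 5 most level among those with a lowest region median of at least 5 CPM, those called or with the 3 smallest p-values in each treatment test, and a fixed list of 26 channel genes. Other genes were named after their values were seen, to complete a family or, within regions, as the smallest p-values. Gene overlaps came from GENCODE M21 and sequences from RefSeq on GRCm38.p6. Results for 3 of the genes are not reported here by name, and counts over the whole set include them.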

Additional observations from a re-analysis of the deposited data

Results flagged for a closer look

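In 9 of 80 groups of samples examined, 1 sample lay far from the others by Dixon's test, where chance gives about 1 in 20. The cerebellar library of AL mouse 68 held 27.4 CPM of Kcne2 (the next 0.730 CPM) and 0.588 CPM of Kcnv1. PBS mouse 72 held 530 CPM of Kcnj13 in SVZ (the next 243 CPM) and 6.79 CPM of Kcng4 in entorhinal cortex. PBS mouse 76 held 26.8 CPM of Kcnh4 in caudate putamen (the next 42.8 CPM) and 16.5 CPM of Kcnh8 in thalamus (the next 5.63 CPM). PBS mouse 80 held 0.220 CPM of Kcnj5 in motor cortex, where all others were at 0. AL mouse 66 held 7.90 CPM of Kcnj13 in posterior hippocampus. The aDR mouse 67 had a Kcnk13 value of 3.74 over brain regions on the log2 scale (the next 4.01).

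The plasma effect on Kcnj13 differed between regions (edgeR adjusted p = 0.00863), a test that rests on few YMP libraries.

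Liver libraries entered no comparison. In AL liver the median was 15.6 CPM for Kcnk5, an acid- and volume-sensitive leak channel, 3.35 CPM for Kcnk6 and 2.09 CPM for Kcne3, each above its highest brain region median (2.74, 2.08 and 1.07 CPM).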

How the results depend on the processing

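Regional calls were 224 higher and 206 lower. With the adjusted p alone and no minimum difference they numbered 955 (538 higher, 417 lower). Leaving out each mouse gave 417 to 433 calls (221 to 227 higher, 192 to 208 lower), the mouse as a replicate block 219 higher and 208 lower, and leaving out choroid plexus, corpus callosum and SVZ, an alternative chosen after seeing the data, 356. Within regions, diet calls went from 0 to 3 with DESeq2 and 1 with no filter on low counts, and to 0 to 1 when leaving out each mouse. Plasma calls went from 2 to 14 with DESeq2 and 4 with no filter, and to 0 to 6 when leaving out each mouse: omitting mouse 72 gave 5, mouse 84 gave 6, and mouse 80 (all PBS) or 81 (YMP) gave 0. Over brain regions, voom with the mouse as a replicate block gave 4 diet and 2 plasma calls, and with no replicate block, which treats regions of 1 mouse as independent, 7 and 11, where the test on mouse values gave 0 and 0. Diet calls there ranged from 0 to 1 when leaving out each mouse. The difference between regions under plasma went from 1 call to 0 with corpus callosum left out and ranged from 0 to 1 when leaving out each mouse, while the replicate block kept 1 call. The cause of these changes was not tested. Calls over all genes were not counted under the alternatives, so these counts cannot be set against a share of all genes.

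Of 82 results for single genes, 60 kept direction and side of the threshold under every alternative run. Reversals were Kcne2 in cerebellum, at -2.16 in PBS libraries only and -1.66 without AL mouse 68 (-1.66 to 3.53 when leaving out each mouse), and Kcnj13 in choroid plexus under plasma, at 0.28 without YMP mouse 73 (-1.28 to 0.28 when leaving out each mouse). Depth limits genes near 0 CPM, whose fitted differences depend on the prior count.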

Other observations

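In liver, 18 of the 90 genes had a median of at least 1 CPM in AL libraries. Kcnn2, a small-conductance calcium-activated channel, ranged from 28.9 to 44.2 CPM there with a median of 37.5 CPM, and Kcnq1ot1 had a median of 103 CPM. In the brain, the median of Kcnn2 ran from 27 CPM in hypothalamus to 85 CPM in posterior hippocampus, so its liver level lay within the range of brain regions.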
